A study of Rattus norvegicus with 8 samples.

Results

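The 7 rat miRNAs rno-miR-6216, rno-miR-3473, rno-miR-1896, rno-miR-1224, rno-miR-466b-5p, rno-miR-466d and rno-miR-465-5p, written without their species prefix from here on, were followed across 8 single-colour Agilent rat miRNA arrays. They were taken by name, as the rows of the scanner files whose systematic name was one of these 7, with every probe counted. They make up 7 of the 758 rat miRNAs and 14 of the 1806 rat miRNA probes of the array, and all 7 were among the 113 miRNAs tested between the groups. A miRNA was tested where the scanner software detected it on each of the 4 arrays of ACLT, of sham or of both. The names had been chosen on the unscaled signals and the ACLT-minus-sham differences of these same arrays, as noncanonical or rodent-specific miRNAs thought to follow the brightness of the array, so their values, and any limma call over all 113 miRNAs that includes a member, are given as descriptions and support nothing about the 7. Over the 8 arrays together, the unscaled signals did not bear out that description for the set, and the 7 are therefore called by their names here. Within the ACLT group alone, several of them were higher on the bright arrays, as given below.

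The RNA came from synovial tissue, the lining of the joint, of the left knee of Sprague-Dawley rats. In the ACLT group (4 arrays) the anterior cruciate ligament was cut, which destabilises the knee and is a common way to bring on osteoarthritis in rats. In the sham group (4 arrays) the joint was opened and the ligament exposed but left whole. Tissue was taken on the side of the joint away from the incision, and no age or sex is given in the labels. The sampling time differs between the labels. It is 2 weeks in the treatment protocol, 14 days in the title of the series and 7 days in its design text. They do not say whether numbered replicates are separate animals, so a standard deviation (SD) or standard error (SE) here covers only the spread between these samples.

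A miRNA is a short RNA that guides Argonaute proteins to messenger RNAs, chiefly through its seed, the bases 2 to 8 from the 5′ end. Most are cut from a hairpin by Drosha in the nucleus and then by Dicer. Mirtrons are noncanonical: splicing takes the place of the Drosha step, and the hairpin is the excised intron itself. miR-1224 is a mirtron. The miR-466 family belongs to a large cluster in an intron of Sfmbt2, a gene of the Polycomb group, and miR-465 to a cluster on the X chromosome that in rodents is expressed mainly in the testis. miR-6216, miR-3473 and miR-1896 carry late miRBase numbers, being names given after sequencing of small RNAs. None of the 7 is a standard marker of synovium.

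The mature sequences are shown because the members fall into sets that share letters but not seeds. All 7 matched RefSeq by name, and positions are those of RefSeq's GRCr8 assembly. The arrays' own grid names build rn4, and no position was taken from it. Capitals mark the seed.
miR-6216, chr3:65165595-65165617, minus strand: gAUACACAgaggcaggaggagaa
miR-3473, chr13:42051730-42051751, plus strand: uCUAGGGCuggagagauggcua
miR-1896, chr17:47861018-47861035, minus strand: uGGUGGGUgaggaggagg
miR-1224, chr11:93811355-93811375, minus strand: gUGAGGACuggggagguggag
miR-466b-5p, chr17:72942513-72942534, minus strand: uAUGUGUGuguguauguccaug
miR-466d, chr17:72913060-72913081, minus strand: aUGUGUGUguauguucuuuugu
miR-465-5p, chrX:150488211-150488232, minus strand: uAUUUAGAacggugcuggugug

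No seed was shared between members, and 0 other mature rat miRNAs in the table held any of the 7 seeds. miR-466b-5p has a further copy at chr17:72945547-72945568. Both copies and miR-466d lay within the span of Sfmbt2 and on its strand. miR-1224 lay within the span of Vwa5b2 on the same strand, and its hairpin of 85 bases began with GU, ended with AG and carried the mature miRNA at its start, the form of a short intron. miR-3473 and miR-1896 lay within the spans of Zranb3 and Zscan26 but on the opposite strand, and miR-6216 lay in no gene of the table. miR-465-5p lay within the span of the long noncoding RNA gene LOC108349259. The table used gives spans of genes, so exon or intron is not stated.

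The first 4 sequences are rich in purines. The letters GGAG, read on the mature RNA strand, stand in miR-6216, miR-3473, miR-1896 and miR-1224, and in 56 of 693 mature rat miRNAs of the table (8.08%). Purines make up 82.6%, 63.6%, 83.3% and 81.0% of these 4, against a median of 50% over the 693. G alone makes up 39.1%, 40.9%, 66.7% and 61.9%, against a median of 23.8%. miR-466b-5p and miR-466d hold a run of UG repeats instead, and matched at 15 of 19 bases in their best overlap without gaps. miR-465-5p holds neither GGAG nor UGUGUGU.

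The arrays differed in brightness within both groups. Brightness here is the 75th percentile of the signal over 136 probes, those that stood well above background on each of the 8 arrays, and 6 of them probe members. In the scanner's linear intensity units ACLT replicates 1 to 4 had 797, 1097, 353 and 305, and sham replicates 1 to 4 had 289, 317, 353 and 1185. ACLT 1, ACLT 2 and sham 4 exceeded 1.5 times the median of the 8 and are called bright, and the other 5 are called dim. The bright arrays were 3.14-fold brighter in geometric mean (log2 difference 1.65, and 1.63 without the probes of members). Brightness did not separate the groups (log2 difference, ACLT minus sham, 0.32, exact two-sided permutation p = 0.771, which over 4 array measures adjusts to 0.83, where 0.0286 is the smallest p that 4 against 4 arrays allow). The labelling spike-in, a synthetic RNA added before labelling, was 476, 312, 199 and 188 on the ACLT arrays and 141, 152, 157 and 386 on the sham arrays, 2.32-fold higher on the bright arrays. The hybridization spike-in, added before hybridization, was 340, 274, 280 and 192 on the ACLT arrays and 270, 422, 498 and 305 on the sham arrays. It did not follow brightness (bright minus dim, log2 -0.04), and its mean was lower on the ACLT arrays by a log2 difference of -0.45 (exact two-sided permutation p = 0.2, 0.457 after adjustment). Per array 111 to 184 miRNAs were detected, 10.5% to 17.0% of spots were well above background, and 0 spots were saturated. Of the marker lists, mesenchymal miRNAs were detected in 5 of 5 and epithelial and neural ones in 0 of 4 and 0 of 2. Striated muscle markers were detected in 4 of 4, with a summed signal of 119 to 4834 on the ACLT arrays and 442 to 2547 on the sham arrays. Their part in the results was not tested.

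Unscaled, the members as a set did not follow brightness over the 8 arrays. Their median bright-minus-dim difference was 0.0089 on the log2 scale (1.01-fold), against 1.55 (2.93-fold) over all 113 tested miRNAs and 1.65 over the 106 that are not members. For comparison, all 9 tested members of the let-7 family and miR-98, conserved miRNAs abundant in most tissues, were higher on the bright arrays, by 1.71 to 2.07 (median 1.87). For 0 of the 7 members was any bright array above every dim array. miR-466d and miR-465-5p were well above background on 1 and 2 arrays, and the highest negative-control probe set differed by only -0.0064. Signals that low can show little of brightness. Among tested miRNAs above 16.6 on every array, the median lowest signal well above background, the median was 0.0024 over 4 members and 1.74 over 83 others. These 4 members ranged from -0.72 to 0.76, and 14 of the 83 others lay at or below the highest of them. A part of low signal in the differences was not tested. Low differences were not limited to these 7, as 27 of the 106 other tested miRNAs also lay at or below 0.76, the highest member. The lowest of all, named here after its value was seen, was miR-206-3p, a skeletal muscle miRNA, at -1.32. These differences are a description, since brightness chose both the arrays and, in part, the members. A larger share of the bright than of the dim arrays is ACLT, so the contrast also mixes group with brightness. Within the ACLT group both bright arrays lay above both dim ones for miR-6216, miR-3473, miR-1896, miR-466b-5p and miR-466d. They did not for miR-1224 and miR-465-5p. In that group miR-6216 was at 60.2 and 73.9 on the bright and 22.4 and 29.6 on the dim arrays. miR-1896 was at 22.1 and 32.9 against 9.4 and 13.1, and miR-466d at 9.79 and 10.3 against 8.51 and 9.62. The brightness itself was 797 and 1097 against 353 and 305. Within the sham group the bright array lay above every dim one for 0 of the 7.

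**Figure D1:**
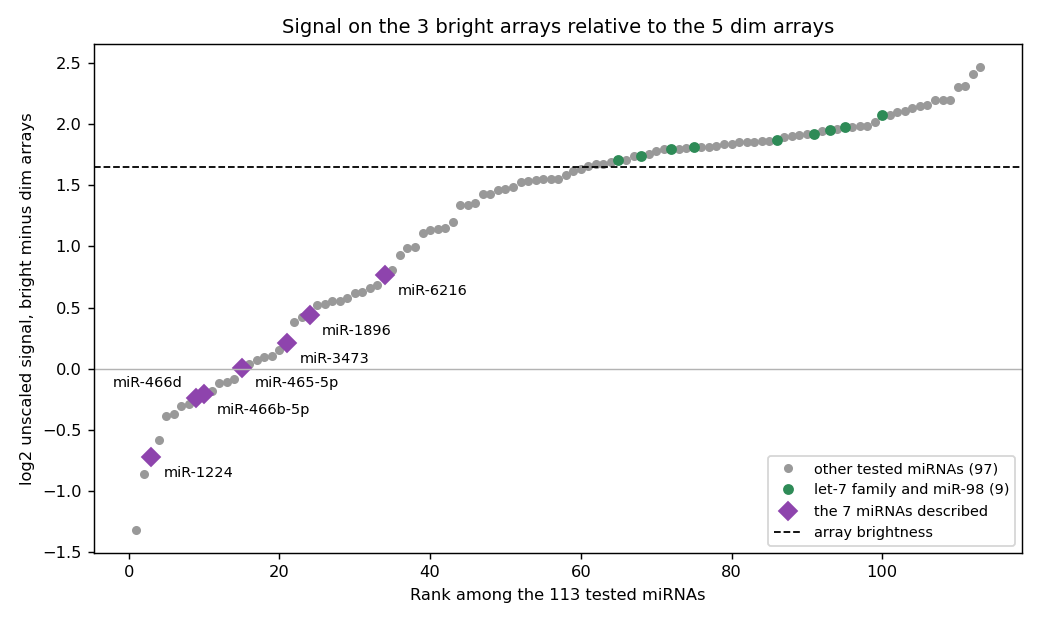
Difference in mean log2 unscaled signal between the 3 bright and the 5 dim arrays (y axis) for the 113 tested miRNAs in order of rank (x axis). The dashed line is the difference of the array brightness itself (1.65), where the let-7 family and miR-98 lie at 1.71 to 2.07, and the 7 miRNAs described lie between -0.72 and 0.76. Of these, miR-466d and miR-465-5p had signals near the negative controls.

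miR-6216 was the member nearest to following brightness. Its unscaled signal (brightest of 2 probes, as for every member below) was 60.2, 73.9, 22.4 and 29.6 on the ACLT arrays (replicates in order) and 31.0, 109.7, 90.8 and 106.9 on the sham arrays. In the ACLT group the 2 bright arrays were above the 2 dim ones, but in the sham group the dim replicate 2 was the highest array of all, and the groups overlapped. The bright arrays were 1.70-fold higher (log2 0.76). The group means were 46.5 ± 24.5 with ACLT and 84.6 ± 36.7 with sham (SD, n = 4 each), a log2 difference, ACLT minus sham, of -0.87 (SE 0.57). It was -0.68 within the bright and -1.39 within the dim arrays.

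miR-3473 was the brightest member, at 11.4 to 41.5 times the highest negative-control probe set of its array. Its unscaled signal was 190.4, 387.1, 146.3 and 168.1 on the ACLT arrays and 212.9, 529.0, 406.2 and 357.5 on the sham arrays. Sham 2 and sham 3, both dim, were the highest arrays, ACLT 3 was the lowest, and the groups overlapped through ACLT 2. The means were 223 ± 111 and 376 ± 131 (SD, n = 4 each), a log2 difference of -0.79 (SE 0.44), with -0.40 within the bright and -1.19 within the dim arrays. The bright arrays were 1.16-fold higher.

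miR-1896, the shortest of the 7 at 18 bases, showed nearly the same order of arrays. It was at 22.1, 32.9, 9.4 and 13.1 on the ACLT arrays and 19.2, 43.6, 38.2 and 31.2 on the sham arrays. ACLT 3 and ACLT 4 were lowest and under the highest negative-control probe set, at 0.740 and 0.891 times it, and the groups overlapped. The means were 19.4 ± 10.5 and 33.0 ± 10.6 (SD, n = 4 each), a log2 difference of -0.87 (SE 0.48). Within the bright arrays it was -0.21. Within the dim arrays it was -1.51, where both ACLT arrays are those under the negative control, so the size is measured against background there. The probe was well above background on 2 of 4 ACLT arrays and 4 of 4 sham arrays. Its log2 signals over the 8 arrays had a Pearson correlation of 0.95 with those of miR-6216 and of miR-3473, and the latter pair of 0.90. These are descriptions over arrays that share brightness and labelling, and these 3 miRNAs also share GGAG. The second probe of miR-3473, well above background on all 8 arrays, gave an ACLT-minus-sham difference of -1.02. Those of miR-6216 and miR-1896 were well above background on 0 and 1 of 4 ACLT arrays and are not read.

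miR-1224, the mirtron, was lowest on the bright array of the sham group, but had no such order in the ACLT group. Its unscaled signal was 117.6, 195.9, 186.7 and 122.4 on the ACLT arrays and 198.9, 276.7, 364.0 and 95.9 on the sham arrays. The brightest array, sham 4, gave its lowest signal, the dim sham 3 gave its highest, and the groups overlapped through sham 4. Within the ACLT group both the lowest (117.6) and the highest (195.9) signal came from bright arrays. The bright arrays were at 0.606 times the dim arrays (log2 -0.72), the third lowest of the 113. The means were 156 ± 41.4 and 234 ± 114 (SD, n = 4 each), a log2 difference of -0.47 (SE 0.47). That difference was -0.85 within the dim arrays and 0.66 within the bright arrays, where sham 4 is the single sham array. Its second probe gave a bright-minus-dim difference of -0.96 and an ACLT-minus-sham difference of -0.55. Its correlation with the other GGAG members was lower, from 0.19 with miR-6216 to 0.47 with miR-3473.

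miR-466b-5p, of the Sfmbt2 cluster, had lower signals on the ACLT arrays than on the sham arrays. It was at 30.2, 31.4, 29.8 and 21.9 on the ACLT arrays and 44.7, 43.6, 48.9 and 32.6 on the sham arrays. Every ACLT array lay below every sham array, ACLT 4 lay apart below the other ACLT arrays, and ACLT 2 and sham 4, both bright, came closest to each other. The means were 28.3 ± 4.35 and 42.5 ± 6.94 (SD, n = 4 each), a log2 difference of -0.58 (SE 0.32). It was -0.08 within the bright and -0.84 within the dim arrays, and the bright-minus-dim difference was -0.21. The second probe also kept the groups apart, with a difference of -0.62, and was well above background on 2 of 4 ACLT and 4 of 4 sham arrays.

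miR-466d, of the same cluster, was near the limit of the array. Its unscaled signal was 9.79, 10.3, 8.51 and 9.62 on the ACLT arrays and 16.6, 15.9, 20.1 and 14.5 on the sham arrays. All 4 ACLT arrays lay below the highest negative-control probe set (0.654 to 0.860 times it) and all 4 sham arrays above it (1.05 to 1.51 times), and the groups did not overlap. The scanner software called it detected on 4 of 4 sham and 0 of 4 ACLT arrays. The means were 9.57 ± 0.768 and 16.8 ± 2.38 (SD, n = 4 each), a log2 difference of -0.80 (SE 0.30) unscaled. Of 8 arrays, 1 sham array alone had this probe well above background, so both groups are close to background and the size of the fold is not settled by these arrays. With all arrays held to a floor, the median over arrays of the lowest signal well above background, the unscaled difference was -0.07. On the scaled signals described below it was 0 with the floor at 2 times its value. The dimmer probe was well above background on 0 arrays and overlapped between the groups.

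miR-465-5p had the narrowest range, 1.56-fold from the lowest to the highest array. It was at 16.7, 13.6, 13.8 and 12.1 on the ACLT arrays and 18.7, 17.0, 18.9 and 18.0 on the sham arrays. The bright sham 4 lay among the dim sham arrays, and the groups did not overlap, ACLT 1 coming nearest to sham 2. The means were 14.1 ± 1.91 and 18.2 ± 0.863 (SD, n = 4 each), a log2 difference of -0.38 (SE 0.30), with -0.26 within the bright and -0.49 within the dim arrays. Only 2 arrays, both sham, had its probe well above background, so the fold is not settled here either, and with the same floor the unscaled difference was -0.13. It too was 0 on the scaled signals with the floor at 2 times its value. The signal was 0.825 to 1.49 times the highest negative-control probe set, which itself varied 1.22-fold between arrays. The second probe was well above background on 0 of 8 arrays and is not read. The log2 signals of miR-466b-5p, miR-466d and miR-465-5p had correlations of 0.82 to 0.87 with each other over the 8 arrays.

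**Figure D2:**
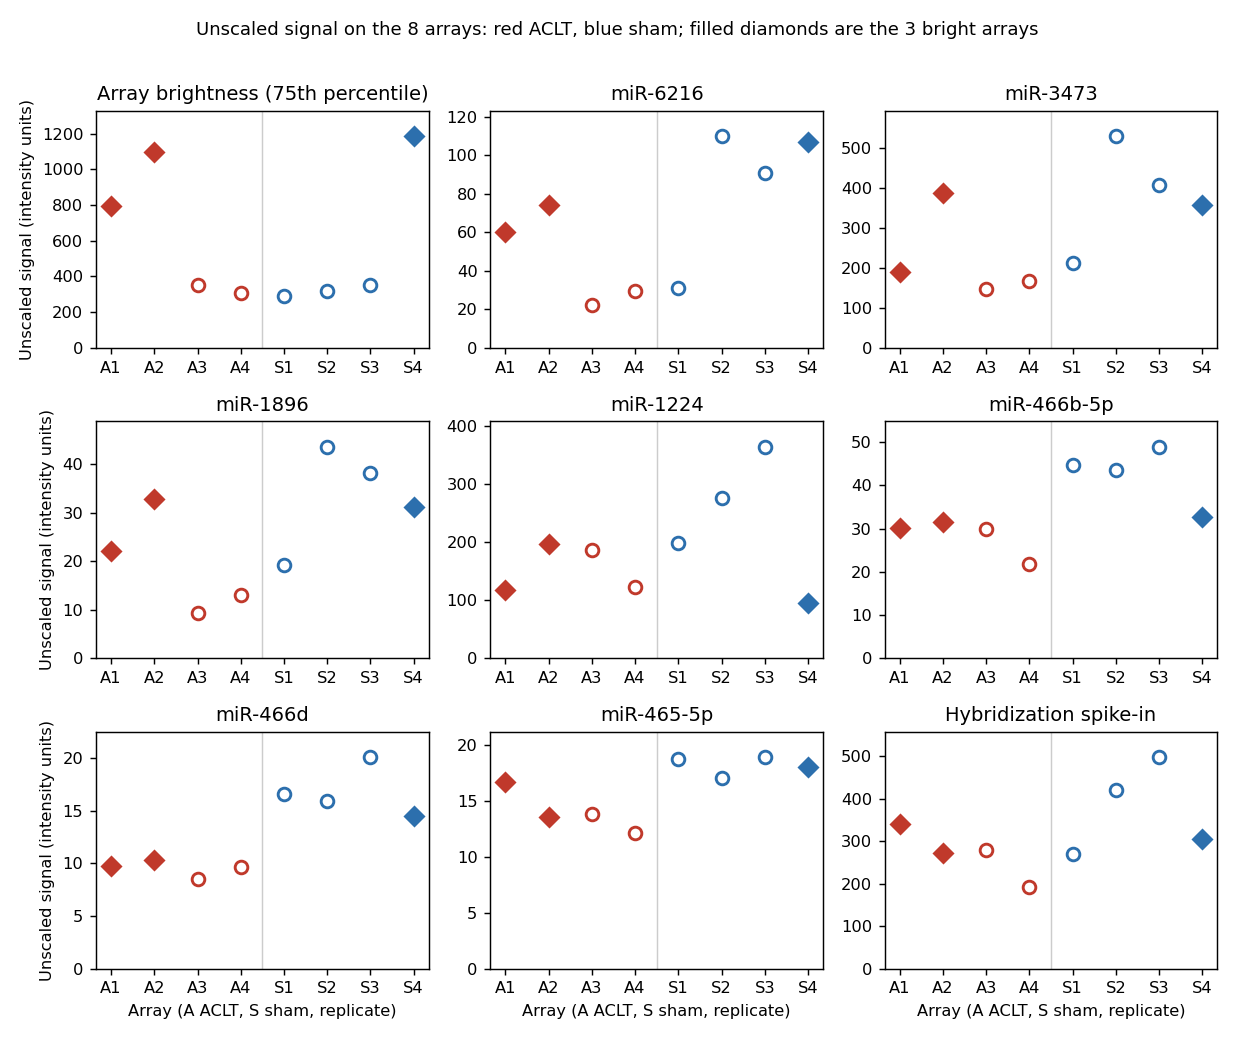
Unscaled signal in linear intensity units (y axes) on each of the 8 arrays (x axes, A for ACLT and S for sham with the replicate number), for the array brightness, the 7 miRNAs and the hybridization spike-in. Filled diamonds are the bright arrays ACLT 1, ACLT 2 and sham 4, which stand out in brightness (797 to 1185 against 289 to 353). In none of the 7 miRNAs does a bright array lie above every dim array.

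Unscaled, all 7 members had a lower mean log2 signal after ACLT, where 20.4% of the 113 tested miRNAs had a difference below 0 and the median over all was 0.19. For 3 of the 7 members, miR-466b-5p, miR-466d and miR-465-5p, every ACLT array lay below every sham array, which held for 4.42% of the tested miRNAs. The reverse held for 0 members and 0 of the 113. These shares were computed on the signals from which the members were known, and nothing is read from them. Besides, miR-466d was tested through the sham group alone, being detected on 4 of 4 sham and 0 of 4 ACLT arrays. Within the dim arrays, 2 ACLT against 3 sham, all 7 differences were below 0, from -1.51 to -0.49 (60.2% of the tested miRNAs were below 0). Within the bright arrays 6 of 7 were below 0 (91.2% of the tested miRNAs). The hybridization spike-in, which is no miRNA of the tissue, was also lower on the ACLT arrays (-0.45), and sham 2 and sham 3, its highest arrays, were also the arrays on which each member was highest (sham 2 for miR-6216, miR-3473 and miR-1896, sham 3 for the other 4). Divided by it, the differences were -0.42 for miR-6216, -0.35 for miR-3473, -0.42 for miR-1896, -0.02 for miR-1224, -0.14 for miR-466b-5p, -0.35 for miR-466d and 0.07 for miR-465-5p, and 0 members (0% of the tested miRNAs) had groups without overlap. Its part in the result was not tested.

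Divided by array brightness, the members had lower means after ACLT. Without a floor, the division lowers every difference by the same 0.32, the brightness difference between the groups, so this is not a separate result. Any change in the order of sizes comes from the floor. Signals were floored at -4.48 on this log2 scale, the median over the arrays of the lowest signal well above background. miR-6216 was at -3.73, -3.89, -3.98 and -3.37 after ACLT and -3.22, -1.53, -1.96 and -3.47 after sham surgery. Sham 4 lay among the ACLT arrays, sham 1 just above them, and sham 2 and sham 3 well above. The means were -3.74 ± 0.27 and -2.55 ± 0.95 (SD, n = 4 each), a log2 difference of -1.19 (SE 0.46).

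miR-3473 was at -2.07, -1.502, -1.27 and -0.86 after ACLT and -0.44, 0.74, 0.20 and -1.73 after sham surgery. Sham 4 fell among the ACLT arrays and the other sham arrays lay above all of them. Its difference was -1.12 (SE 0.55). miR-1224 was at -2.76, -2.49, -0.92 and -1.32 after ACLT and -0.54, -0.20, 0.04 and -3.63 after sham surgery. Here too sham 4 was apart, below every ACLT array. The difference was -0.79 (SE 0.90). Leaving out 1 array at a time, it ran from -1.64 without sham 4 to -0.42 without sham 3, with -0.49 without ACLT 1 and -0.496 without sham 2. Unscaled it ran from -0.84 without sham 4 to -0.20 without sham 3.

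The other 4 members reached the floor. miR-466b-5p was at the floor on ACLT 1, ACLT 2 and sham 4, with a difference of -0.86 (SE 0.45). miR-1896 reached it on 5 arrays, ACLT 1 to 4 and sham 4, with a difference of -0.86 (SE 0.34). miR-466d and miR-465-5p reached it on the same 5 arrays, with differences of -0.21 (SE 0.09) and -0.26 (SE 0.11). For these 4 the floor sets the size of the difference and narrows the spread, and their values there have no order. No member kept the groups apart on this scale, where 0% of the 113 did.

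Over all tested miRNAs, limma with Benjamini-Hochberg adjustment called 0 of 113 between ACLT and sham on the scaled signals, so 0 of the 7 members (background 0%), with 8 at an unadjusted p under 0.05 and a smallest adjusted p of 0.645. The median scaled difference was -0.86 over the members and -0.07 over all tested, and 64.6% of the tested were below 0. Without scaling or floor limma again called 0 of 113, with 1 at an unadjusted p under 0.05. Within the dim arrays alone, unscaled, it called 8 of 113 (7.08%), of which 2 were the members miR-1896 and miR-466d, both with the lower signal after ACLT, and the other 6 were higher. Both dim ACLT arrays lie under the highest negative-control probe set for these members, and detection on all 4 arrays held for them in the sham group only. These 6, named after the call was seen, were miR-128-3p and the striated muscle miRNAs miR-1-3p, miR-1b, miR-133a-5p, miR-133b-3p and miR-206-3p. Within slide row 1, on scaled signals, it called 4 (3.54%), of which 2 were the members miR-1224 and miR-466b-5p. In the authors' deposited value table, miR-466d was the single call (0.885%). The table lists it at 0.1, the entry for not detected, on all 4 ACLT arrays, so the size of that difference is set by that entry. In bulk tissue, fewer cells of a type and less RNA per cell cannot be told apart.

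**Figure D3:**
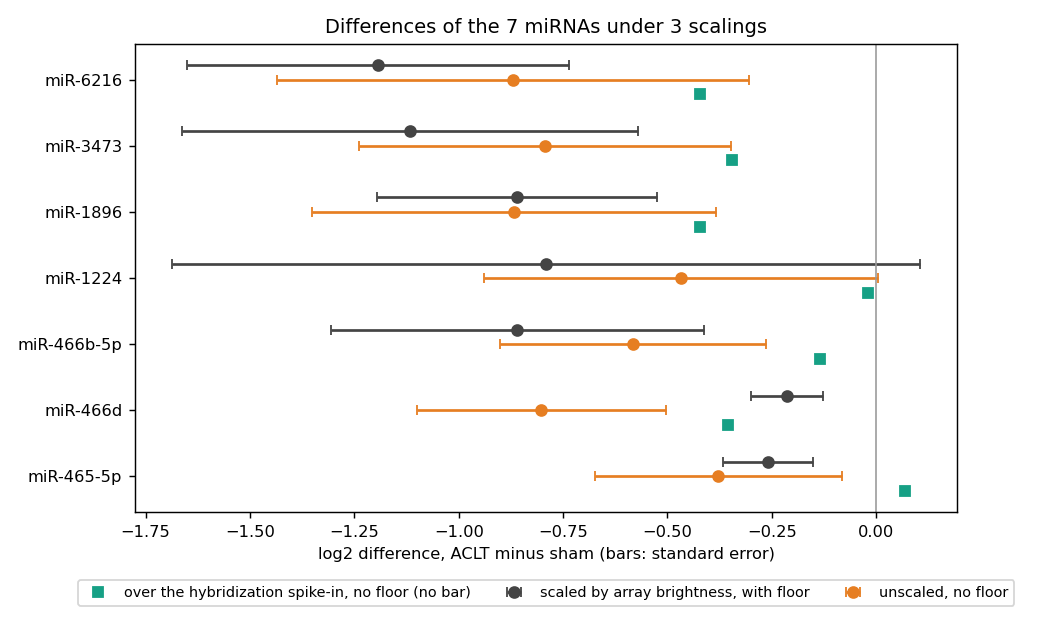
log2 difference, ACLT minus sham, of the 7 miRNAs (x axis) from signals divided by array brightness and floored, unscaled signals, and signals over the hybridization spike-in. Bars are standard errors from limma over all 8 arrays, and the third set has none. The scaled and unscaled estimates all lie below 0, and over the spike-in they lie between -0.42 and 0.07.

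The UG repeat of miR-466b-5p and miR-466d was followed to the other miRNAs that hold it. Of 693 mature rat miRNAs of the table, 5 (0.722%) hold UGUGUGU on the mature strand, and all 5 are on the array. Capitals mark the longest UG run that holds it.
miR-32-3p, chr5:76391288-76391309, minus strand: gcaauuuagUGUGUGUGauauu
miR-466d: aUGUGUGUGUauguucuuuugu
miR-466c-5p, chr17:72927649-72927669, minus strand: ugugaUGUGUGUauguacaug
miR-466b-5p: uaUGUGUGUGUGUauguccaug
miR-672-5p, chrX:73192351-73192373, minus strand: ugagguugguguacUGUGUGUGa

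In all 5, 2 of them at background on most or all arrays, every ACLT array lay below every sham array in unscaled signal, as it did for 1.72% of the 758 miRNAs of the array. The motif was chosen after these values were seen, so the count is a description. miR-32-3p, the lesser arm of the miR-32 hairpin, was at 22.9, 20.6, 21.9 and 19.0 on the ACLT arrays and 33.1, 29.9, 40.2 and 24.9 on the sham arrays. The bright sham 4 was its lowest sham array, and the means were 21.1 ± 1.70 and 32.0 ± 6.39 (SD, n = 4 each). miR-672-5p was at 24.1, 24.6, 24.1 and 21.7 on the ACLT arrays and 34.8, 29.7, 34.9 and 31.0 on the sham arrays. Its bright ACLT arrays were the highest of their group by a small margin, its bright sham array was not, and the means were 23.6 ± 1.31 and 32.6 ± 2.63 (SD, n = 4 each). miR-466c-5p was detected on too few arrays to be tested, was well above background on 0 of 8 arrays and lay under the highest negative-control probe set on 7 of them. It was at 7.79, 9.72, 6.73 and 5.08 on the ACLT arrays and 13.4, 9.87, 11.96 and 10.9 on the sham arrays. The means of miR-466c-5p were 7.33 ± 1.95 and 11.5 ± 1.502 (SD, n = 4 each). Its bright arrays were the highest of the ACLT group, and its groups came closest to each other (9.72 to 9.87). The second probe also kept the groups apart in 4 of the 5, the exception being miR-466d. This count is likewise a description. It includes the dimmer probe of miR-466c-5p, whose brighter probe was itself at background. Over the hybridization spike-in the 5 differences were -0.14 for miR-32-3p, -0.35 for miR-466d, -0.24 for miR-466c-5p, -0.14 for miR-466b-5p and -0.02 for miR-672-5p, and none of the 113 tested miRNAs kept the groups apart on that scale.

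**Figure D4:**
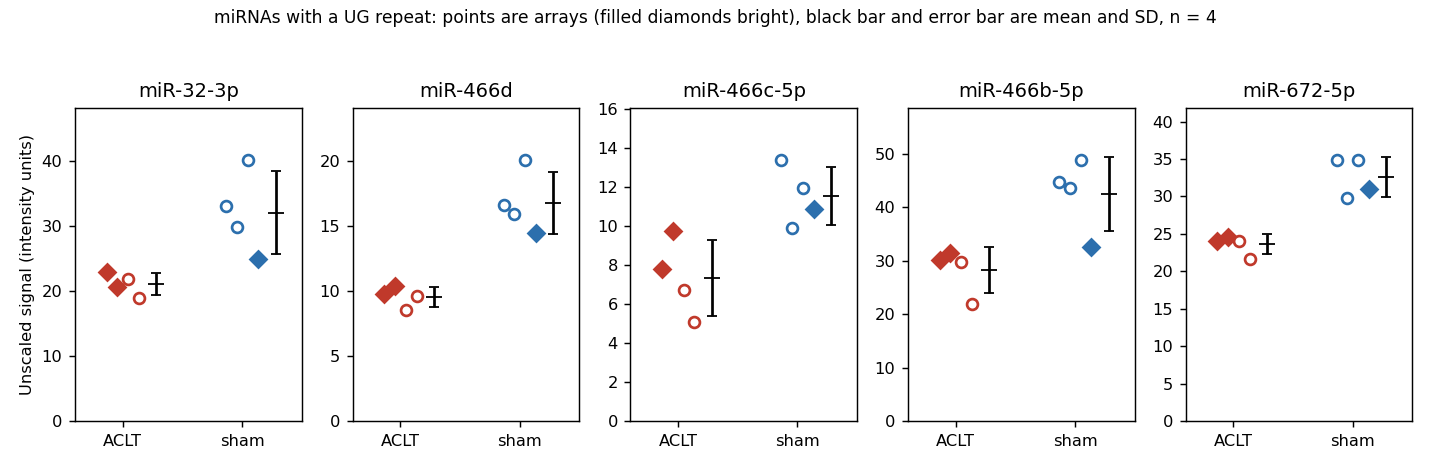
Unscaled signal in linear intensity units (y axes) of the 5 miRNAs that hold the UG repeat, by group (x axes). Points are arrays (filled diamonds bright), and the black mark with its bar is the mean and SD of 4 arrays. In each panel all 4 ACLT arrays lie below all 4 sham arrays.

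The GGAG letters were treated the same way. Of the 103 tested miRNAs matched to a sequence by name, 8 held GGAG, 4 of them members. The other 4 were let-7e-5p, miR-3558-3p, miR-539-5p and miR-652-5p. Their unscaled bright-minus-dim differences ran from -0.39 for miR-539-5p to 1.87 for let-7e-5p, with a median of 0.17, and the 95 tested miRNAs without GGAG had a median of 1.66. let-7e-5p, the highest of these 4, is also by far the brightest (mean log2 unscaled signal 8.70). miR-539-5p had a mean of 3.41, below the highest negative-control probe set (3.73 with ACLT, 3.71 with sham). miR-3558-3p was at the scaled floor on 6 arrays. For these 2, GGAG and low signal cannot be told apart. miR-652-5p, with a mean of 4.99, had a bright-minus-dim difference of -0.19. A part of the letters in the differences was not tested.

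The other miRNAs of the families and classes to which the members belong were mostly below detection. Of the 7 miRNAs on the array from the Sfmbt2 cluster (miR-466, miR-467, miR-297 and miR-669), 3 were detected on any array and 2 tested, both members. Of 23 from the X-linked testis cluster 1 was detected, miR-465-5p. Of 4 mirtron arms 1 was detected, miR-1224. Of 138 miRNAs with a miRBase number of 1000 or more, 11 were detected and 6 tested. Besides the 4 members these were miR-3558-3p, with a scaled difference of -0.05 (SE 0.19), and miR-1949, with -0.0014 (SE 0.27). limma called 0 of the tested miRNAs of each list in either direction, against 0% of all tested.

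Among other tested miRNAs, those whose unscaled log2 signal was most like that of a member over the 8 arrays were as follows. For miR-6216 they were miR-320-3p (Pearson r = 0.89), which is made without Drosha, and miR-144-3p (0.81), an erythroid miRNA. miR-3473 was most like miR-324-3p (0.64) and miR-320-3p (0.63). Bright-minus-dim differences were 0.43 for miR-320-3p, 2.02 for miR-144-3p and 1.13 for miR-324-3p. miR-320-3p was above the unscaled floor on 6 of the 8 arrays. miR-1224 was most like miR-494-3p (0.92), from the Dlk1-Dio3 imprinted locus, whose bright-minus-dim difference of -0.86 was also below 0. miR-466b-5p was most like the UG-repeat miRNAs miR-32-3p (0.94) and miR-672-5p (0.91), with bright-minus-dim differences of -0.29 and -0.11. The points share arrays, brightness and labelling, and the correlations are descriptions over 8 arrays.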

How the data were processed

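Per the file headers, the authors read the scanner images with Agilent Feature Extraction 10.7.3.1 and deposited 1 file per array. The processed signals used here are an intensity on a linear scale that the software had background-subtracted, per the file headers, with no scaling from array to array. The value table that the authors deposited holds the software's total signal per miRNA (largest difference 0), in linear units with no centring, and the median of each column is 0.1, its entry for not detected. Per the labels, labelling used a Low Input Quick Amp kit, a kit for messenger RNA, and its use for these arrays is not settled.

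Outlier spots (9.01% to 11.1% per array) were left out and spots averaged per probe. A probe was well above background where at least 0.5 of its spots were, and a miRNA was read from its probe with the highest mean over the 8 arrays. Scaled values were divided by the array's 75th percentile, set to a floor of 0.0449 and taken to log2. Unscaled values were taken to log2 after setting those under 1 to 1. The ACLT-minus-sham fit used limma 3.58.1 under R 4.3.3 (lmFit, eBayes without trend, no covariate), with p-values adjusted over all tested miRNAs. Array measures were compared by exact permutation over 70 arrangements. Same-numbered samples were not treated as pairs. On the scaled signals, the correlations of their deviations from the group means were -0.19, 0.59, 0.80 and -0.41. These values do not settle whether the samples are paired. The limma fit was tested on simulated, independent log2 values with known differences.

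Named are the 7 members, the 2 most similar tested miRNAs for each member above the floor on all arrays, up to 2 members of each related list, and others where the text says that they were seen in the values. The members and lists were chosen with earlier results of these data known. Alternatives were other scalings, background correction, probe summaries, filters, floors, variance models, slide row, replicate block, brightness as a covariate or as a split, and leaving out each array. Normexp, with an offset of 50, used median signals in place of means. Of the tested miRNAs, 103 of 113 matched a mature sequence by name.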

Additional observations from a re-analysis of the deposited data

Results flagged for a closer look

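In 4 of 25 group values of the members (7 miRNAs, both groups, unscaled and scaled, leaving out 3 with all arrays at the floor), 1 array lay far from the other 3. Chance would give 1.25 over independent groups, which these are not, since both scales use the same arrays. Scaled by brightness, the distance from sham 4 to the nearest sham array was 0.841 of the range of the sham group for miR-1224 (-3.63 against -0.54 to 0.04) and 0.904 for miR-466b-5p (at the floor of -4.48 against -2.86 to -2.69). Unscaled, the corresponding share was 0.85 for miR-6216 on sham 1 (log2 signal 4.95 against 6.50 to 6.78) and 0.853 for miR-466b-5p on ACLT 4 (4.45 against 4.90 to 4.97). Sham 4 is the brightest array, and sham 1 and ACLT 4 are the dimmest 2.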

How the results depend on the processing

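Of 43 alternatives, 39 left the count of tested miRNAs called by limma at 0. It was 1 in the authors' value table, 4 within slide row 1, and, unscaled without a floor, 8 within the dim arrays and 71 within slide row 1, where both ACLT arrays were bright and both sham arrays dim. Leaving out any array gave 0 (0 to 0). The median scaled difference of the members (-0.86) was below 0 under 42 of 43 alternatives. It came to -0.17 within slide row 2, 0 within the bright arrays, -0.14 with hybridization spike-in scaling and -0.26 unscaled within the bright arrays, and ran from -1.28 (without sham 4) to -0.61 (without sham 2) when an array was left out, or unscaled from -0.84 (without ACLT 2) to -0.57 (without ACLT 3). With the replicate block limma called 0 (4 at an unadjusted p under 0.05), and the median stayed at -0.86. Replicate number and slide row are balanced between the groups, so blocking on them could not move the median. Nor could the variance model or a wider filter. The members were chosen on differences of these same arrays, so none of the 42 counts as support. miR-6216 turned to 0.19 unscaled within slide row 1. miR-1224 was positive within slide row 2 (0.67) and within the bright arrays (1.00, and 0.66 unscaled). The bright-minus-dim median of the members (0.0089) lay between -0.15 and 0.07 under 11 alternatives. Alternatives with the hybridization spike-in or without scaling and floor were chosen after seeing the data. The number of arrays, and for miR-466d and miR-465-5p a signal close to the negative controls, limit the precision.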
